A study of Bos taurus with 8 samples.

Results

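The 9 genes described here mark the macrophage lineage: CSF1R, CD14, CD163, MRC1, C1QA, C1QB, C1QC, CD68 and SPP1. They were taken by symbol from the 21880 genes of the count tables, and each symbol matched 1 bovine Ensembl gene. The rule that picked them used names and no measured value. Their unique molecular identifiers (UMIs, 1 per captured transcript) were counted in 4395 cells of muscle and 9591 cells of passage 0 (P0), of which 403 and 141 carried the authors' monocyte/macrophage label. The search was then extended to 22143 cells of passages 2, 5 and 8 (P2, P5 and P8), where no cell carried that label.

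Macrophages take up dying cells and debris, sense microbes and remodel tissue, and skeletal muscle holds a resident population that takes part in repair. Their survival depends on signalling through CSF1R, the receptor for the growth factors CSF1 and IL34. CD14 binds bacterial lipopolysaccharide, CD163 takes up haemoglobin bound to haptoglobin, and MRC1 is the mannose receptor. C1QA, C1QB and C1QC encode the 3 chains of C1q, which starts the classical complement pathway. CD68 is a glycoprotein of lysosomes, and SPP1 encodes osteopontin, a secreted matrix protein that is not limited to macrophages.

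The study followed muscle cells through a process for cultured meat by single-cell RNA sequencing of 3′ transcript ends. Cells came from the semitendinosus of 10 Belgian Blue cattle, 5 calves (donors 2, 4, 5, 7 and 10) and 5 adults (donors 1, 3, 6, 8 and 9), by collagenase digestion. Muscle cells were sequenced unsorted after isolation, and P0 was the fraction that adhered to fibronectin during 72 h of culture without serum. The methods describe P0 as unsorted, while the labels of its library name SCs and FAPs beside unsorted cells. In the P0 cells of the donors whose later cultures were sorted for SCs, 696 to 946 were FAPs and 163 to 469 SCs, those of the donors of FAP cultures held 169 to 339 SCs, and all 9 donors held macrophages. At P2, P5 and P8 the cultures were unsorted (donors 1, 2 and 9) or had been sorted for satellite cells (SCs, the muscle stem cells; donors 5, 6 and 10) or fibro-adipogenic progenitors (FAPs; donors 4, 7 and 8). Cells of all donors were pooled into 1 library per timepoint and assigned to donors by genotype, and donor 3 was used in muscle alone. Culture time and library therefore cannot be told apart, and donors were the replicates.

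The median number of UMIs per cell was 4184 in muscle, 19375 at P0 and between 18340 and 27239.5 at P2 to P8. Macrophages had 6108 in muscle and 7568 at P0. Of 36000 distinct cell barcodes 129 occurred in more than 1 library, and 6 muscle macrophages and 0 P0 macrophages carried one. Levels are given as UMIs per 1000000 UMIs (CPM), summed over the cells of a type or of a type and donor. In such sums, fewer expressing cells and less RNA per cell cannot be told apart.

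Cells with the macrophage label were described by markers that are not among the 9 genes. The label came from clusters of the same counts, so this is not a test of it. The markers are shared with other leukocytes. In muscle TYROBP was seen in 50 of 51 neutrophils and PTPRC in 172 of 188 lymphocytes. In muscle macrophages all 8 pan-leukocyte and myeloid markers had UMIs, with the adaptor gene TYROBP in 95.0% of cells and the lysosomal membrane gene LAPTM5 in 98.3%. At P0 all 8 again had UMIs, with TYROBP in 92.2% and LAPTM5 in 73.0% of cells. The summed level of the 8 markers was 6016 to 9566 CPM over 10 donors in muscle and 3540 to 6289 CPM over 7 donors at P0. Macrophages made up 9.17% of muscle cells and 1.47% of P0 cells.

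In muscle 6 of the 9 genes were close to restricted to macrophages. These cells held 99.6% of all UMIs of CSF1R, 99.6% of CD163, 99.4% of C1QA, 99.5% of C1QB, 99.4% of C1QC and 96.8% of MRC1. They held 70.8% of CD68, 66.1% of CD14 and 8.44% of SPP1. Exact binomial 95% intervals were 99.3% to 99.8% for CSF1R, 63.7% to 68.6% for CD14 and 6.22% to 11.1% for SPP1, and like all intervals here they cover counting error only. Cell types were named from clusters of the same values, so these levels are a description without a test.

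Among the receptors, pooled CSF1R was at 1104 CPM in muscle macrophages, and at most 4.52 CPM in any of the 10 other types. It had a UMI in 87.1% of macrophages (83.4% to 90.2%, exact binomial) and in 0.487% of FAPs (0.179% to 1.06%), cells that should lack it, at median depths of 6108 and 6213 UMIs. CD163 was at 700 CPM, with 8 UMIs in all other cells together. MRC1 was at 727 CPM in macrophages and at 108 CPM in lymphatic endothelial cells (LECs), where 27.2% of 81 cells had a UMI. LECs were the only other type in which MRC1 passed 2.2 CPM. In the 4 donors with at least 10 LECs, MRC1 ranged from 0 to 152 CPM, and in macrophages of 10 donors from 336 to 948 CPM, so these levels did not overlap.

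CD14 was the receptor least tied to macrophages. It was at 379 CPM in macrophages, 56.1 CPM in FAPs, 28.2 CPM in tenocytes and 13.6 CPM in LECs. The ranges over 10 donors were 190 to 528 CPM in macrophages and 23.8 to 123 CPM in FAPs. FAPs held 11.4 CD14 UMIs per UMI of C1QA, where macrophages held 0.0473.

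The C1q genes were the most abundant of the 9 in muscle macrophages, at 8019 CPM for C1QA, 4138 CPM for C1QB and 4875 CPM for C1QC. Each was seen in 76.9% to 78.9% of macrophages. C1QA had a UMI in 2.76% of FAPs, 2.40% of vascular endothelial cells (VECs) and 1.85% of SCs. Of all C1q UMIs C1QA gave 47.1% of 43977 in macrophages, 48.9% of 94 in VECs, 44.4% of 27 in SCs and 42.7% of 89 in FAPs. C1QC gave 28.6% in macrophages, 28.7% in VECs, 25.9% in SCs and 37.1% in FAPs. The VEC values rest mostly on donor 4, which held 26 of 46 C1QA, 14 of 21 C1QB and 16 of 27 C1QC UMIs.

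CD68 was nearly level between macrophages and neutrophils, at 296 and 314 CPM, and the latter rests on 31 UMIs of 51 cells. Every other type was at or below 23.0 CPM. SPP1 was at 17.4 CPM in macrophages, below 127 CPM in 23 tenocytes and 55.4 CPM in FAPs. Only 9 muscle macrophages had an SPP1 UMI, and the 4 highest held 88.9% of the 45 UMIs.

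**Figure D1:**
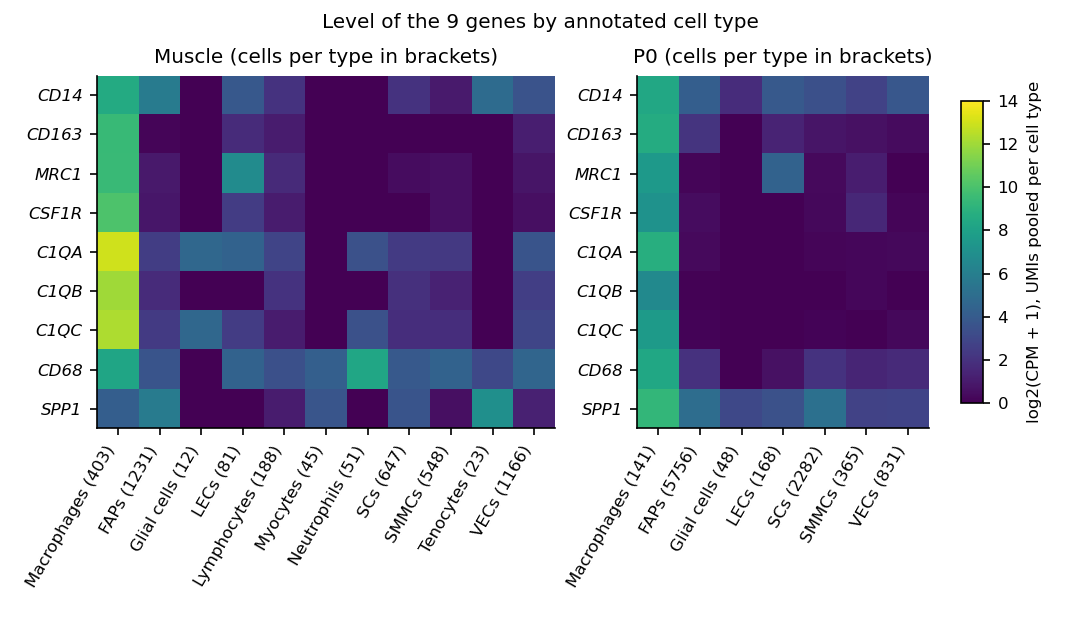
Heatmaps of the level of the 9 genes, as log2(CPM + 1) of UMIs pooled per annotated cell type, in muscle (left) and at P0 (right), with the number of cells per type in brackets. The macrophage column is brightest for CSF1R, CD163, MRC1 and the 3 C1q genes, while CD14 also appears in FAPs, CD68 in neutrophils and SPP1 in tenocytes and FAPs.

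The 9 genes were also detected together in single cells. Of 403 muscle macrophages 308 had a UMI of at least 5 of the 9 genes, and 134 had exactly 8. Among all other muscle cells 1 cell, labelled VEC, had 5 or more. At P0 82 of 141 macrophages had at least 5, against 2 of 5756 FAPs and 0 cells of the 5 remaining types. A small fraction of labelled macrophages had none of the 9 genes, 36 cells in muscle and 13 at P0.

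**Figure D2:**
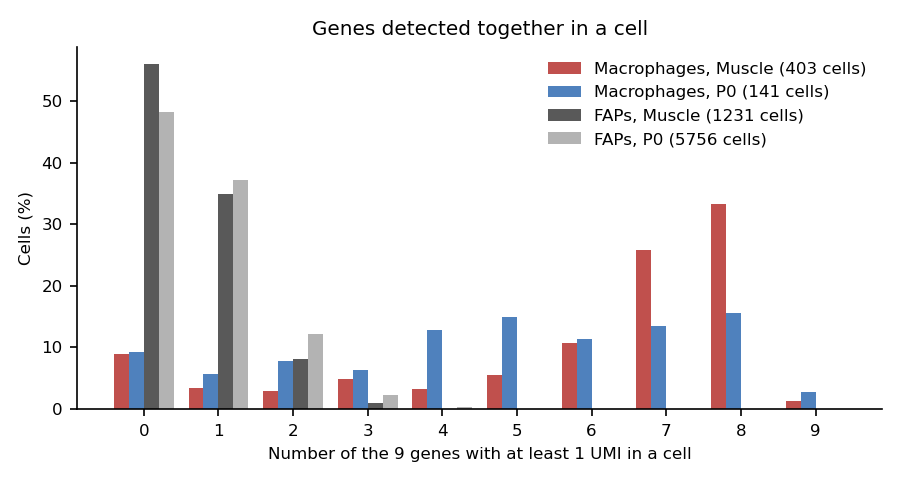
Percent of cells (vertical axis) by the number of the 9 genes with at least 1 UMI in the cell (horizontal axis), for macrophages and FAPs of muscle and P0. Muscle macrophages peak at 8 genes and P0 macrophages spread from 4 to 8, while 0 to 1 gene is the usual count in FAPs.

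Muscle macrophages fell into cells rich in C1q and cells without it. Of 403 cells 314 had at least 3 UMIs of the C1q genes, with a median of 124, only 6 had 1 to 2, and 83 had 0 (20.6%, exact binomial interval 16.8% to 24.9%). Median depth was 5805.5 UMIs in the first class and 7138 in the last, so the cells without C1q were not shallower. The share of cells with at least 3 C1q UMIs was 71.2% ± 12.7 (SD, n = 10 donors), from 53.3% to 90.1%.

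Within each donor the C1q-positive cells also carried more CD163, MRC1, CSF1R, CD14 and CD68. Sums of at least 5 cells per donor and class were compared in 9 donors, with donor in the model. The fit and its adjusted p values covered 954 genes, among them the 3 C1q genes. These 3 are left out of the shares of genes given here. CD163, MRC1, CSF1R, CD14 and CD68 could pass the filter on low counts through the positive class alone. Their number therefore carries no weight, and each is given by its values. Calls required a log2 fold change beyond 1 in size and an adjusted p under 0.05. Of the 951 genes other than C1q, 13.5% were called, 10.7% as higher and 2.73% as lower. The classes were cut on C1q, so the comparison describes which genes went with C1q among these cells. Of the negative cells 57.8% had a UMI of at least 1 of 11 markers of other leukocytes, against 5.73% of positive cells. Listed markers left out of the 11 include BATF3 and NKG7, which were seen in more of the positive cells. The part of the cells with such markers in the differences was not tested over donors.

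CD163 was between 0 and 108 CPM in C1q-negative cells (median 37.9) and between 493 and 1737 CPM in C1q-positive cells (median 910). The classes did not overlap, and the difference was 4.41 ± 0.36 (log2, SE), or 21.2-fold, with an adjusted p of 1.1e-07 (edgeR). The negative sums held 0 to 9 CD163 UMIs, so this size is rough. MRC1 was between 0 and 269 CPM (median 69.3) against 757 to 1689 CPM (median 924). It was higher in the positive class of every donor, by 3.52 ± 0.32 on the log2 scale (edgeR, adjusted p 3.93e-07), with 0 to 14 UMIs per negative sum. CSF1R ran from 0 to 341 CPM (median 173) against 947 to 1888 CPM (median 1347), a log2 difference of 3.05 ± 0.27 (edgeR, adjusted p 2.82e-07). Its negative sums held 0 to 19 UMIs. It had a UMI in 99.4% of positive and 39.8% of negative cells.

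CD14 and CD68 showed smaller differences of nearly the same size. CD14 was at 0 in 4 of 9 donors and at most 258 CPM in negative cells, and between 323 and 715 CPM in positive cells. The log2 difference was 2.73 ± 0.50 (edgeR, adjusted p 0.000881). The negative sums held 0 to 28 CD14 UMIs, so this size is rough. CD68 was at 0 to 132 CPM (median 33.3) against 148 to 517 CPM (median 332), a log2 difference of 2.73 ± 0.33 (edgeR, adjusted p 6.96e-06). Its negative sums held 0 to 11 UMIs. Each of the 5 genes was higher in 9 of 9 donors with no overlap of the classes; all positive sums lay above all negative ones for 6.62% of the genes tested. SPP1 was at 0 in all 9 sums of negative cells and reached at most 57.9 CPM in positive ones. It did not pass the filter on low counts.

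**Figure D3:**
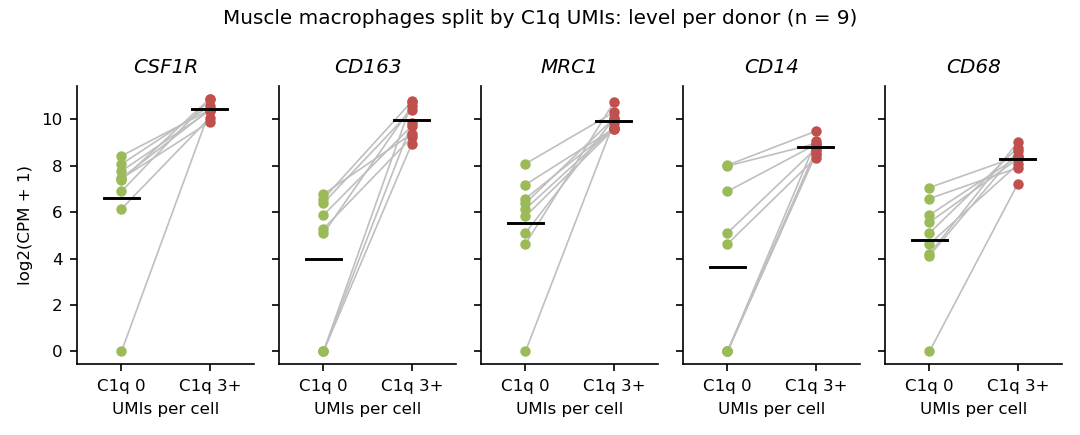
Level per donor, as log2(CPM + 1), of 5 genes in muscle macrophages with 0 C1q UMIs and with at least 3, with lines joining the 9 donors and bars at the mean. Every line rises, and for each gene the lowest positive value lies above the highest negative value.

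Of 14 listed genes of scavenging and tissue-resident macrophages 7 passed the filter, which the positive class alone could meet, and the other 7 were not tested. LYVE1, a hyaluronan receptor, was at 11.5 ± 27.9 CPM in negative and 1040 ± 365 CPM in positive cells (SD, n = 9). FOLR2, a folate receptor, was at 21.4 ± 26.1 and 1315 ± 388 CPM, and the scavenger receptor STAB1 at 11.1 ± 22.1 and 641 ± 259 CPM. SELENOP, MSR1, HMOX1 and F13A1 were also called higher. Beside 10.7% of all genes tested, the complement receptors C3AR1 and C5AR1 were higher (2 of 3 tested of the complement list), as were CTSK, CTSB and LAMP1 (3 of 6 of the lipid, lysosome and remodelling list) and CCL2 (1 of 4 inflammatory mediators). Neither of 2 osteopontin receptors and none of 3 genes tested of the list of CSF1R ligands and myeloid factors was called.

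Of 8 pan-leukocyte and myeloid markers 1, the protease CTSS, was called higher, by 1.07 ± 0.18 on the log2 scale. TYROBP differed by 0.30 ± 0.20 and PTPRC by -0.03 ± 0.20. Outside the lists the largest differences were in CCL24, AOC1, SLC40A1, DAB2 and CD209 upwards and in LYZ, CST3, PIM3, EZR and PSMB9 downwards. CCL24, an eosinophil attractant, had no UMI in the sums of negative cells and was at 636 CPM in positive ones.

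Some C1q-negative cells held markers of other leukocytes. A UMI of at least 1 of 11 such markers was present in 57.8% of negative and 5.73% of positive cells. FLT3, a receptor of dendritic cells, was seen in 27.7% and 3.18%, the neutrophil gene S100A9 in 18.1% and 0.637%, and the B cell gene MS4A1 in 10.8% and 0.318%. The share over all 15 listed markers is not given, as the 11 leave out 4 of them. Of these S100A12 was in 25.3% and 4.46% and CXCR2 in none, while BATF3, listed for dendritic cells, was in 44.6% of negative and 72.9% of positive cells, and NKG7, listed for lymphocytes, in 4.82% and 36.0%. In the 26 negative cells with a TYROBP UMI and none of the 11 markers, chosen after these values were seen, pooled CSF1R was at 158 CPM, MRC1 at 151 CPM and CD163 at 6.31 CPM. The matching 296 positive cells had 1421, 948 and 961 CPM. The order of the classes was thus the same without those cells, with no test.

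After 72 h in culture, macrophages had less of the C1q genes, CSF1R and MRC1, while CD14 and CD68 were near their level in muscle. Sums of at least 10 cells were available for 10 donors in muscle and 7 at P0. Of the 8 genes that passed the filter on low counts, 5 were called and all 5 were lower, against 20.4% of 2896 genes called lower and 34.6% called in either direction. The 5 were lower in 7 of 7 donors and did not overlap between groups, which was the case for 13.6% of genes in this direction and 14.5% in the other; 14.3% were called higher. Median log2 fold change over all genes was -0.03. Genes abundant in 1 of the groups can pass the filter through it alone, here and in the lists below, so the values of each gene carry the comparison and not the number that passed.

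C1QB showed the greatest loss of the 9. It was between 1719 and 5807 CPM in muscle (median 3779) and between 24.3 and 250 CPM at P0 (median 102), lower by 33.4-fold, with a log2 fold change of -5.06 ± 0.38 (adjusted p 6.79e-09). C1QC was between 1563 and 7581 CPM (median 4056) and then between 122 and 440 CPM (median 165), a log2 fold change of -4.30 ± 0.36 (adjusted p 2.53e-08). C1QA was between 3993 and 11422 CPM (median 6705) and then between 166 and 997 CPM (median 478), a log2 fold change of -3.83 ± 0.32 (adjusted p 2.06e-08). The highest P0 donor lay below the lowest muscle donor for each of the 3 chains.

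The share of each chain among C1q UMIs is given as a description, since it was looked at after the pooled values were seen. C1QA gave 48.0% ± 4.09 of C1q UMIs in muscle and 61.2% ± 8.82 at P0 (SD, the same 7 donors), higher in 7 of 7. C1QB gave 24.2% ± 1.68 and then 12.8% ± 5.24, lower in 7 of 7. C1QC gave 27.8% ± 3.16 and 26.0% ± 7.63, lower in 5 of 7. The few C1q UMIs of P0 FAPs, 58 in all, had 62.1% from C1QA and 13.8% from C1QB.

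Of the receptors, CSF1R was between 716 and 1400 CPM in muscle (median 877) and between 68.2 and 247 CPM at P0 (median 137). The groups were far apart, with a log2 fold change of -2.84 ± 0.21 (adjusted p 2.93e-11), or 7.17-fold lower. MRC1 was between 336 and 948 CPM (median 668) and then between 148 and 284 CPM (median 213), a log2 fold change of -1.76 ± 0.20 (adjusted p 1.65e-08). CD163 was between 388 and 1020 CPM (median 739) and then between 268 and 597 CPM (median 402). It overlapped between groups and was lower in 6 of 7 donors. Its log2 fold change of -0.86 ± 0.20 had an adjusted p of 0.000729 but lay under the size needed for a call, and it was -1.04 without donor 10.

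CD14 and CD68 overlapped between groups and were not called. CD14 was between 190 and 528 CPM in muscle (median 352) and between 271 and 466 CPM at P0 (median 357), a log2 fold change of -0.03 ± 0.17 (adjusted p 0.874). CD68 was between 77.5 and 410 CPM (median 250) and then between 199 and 816 CPM (median 274), a log2 fold change of 0.22 ± 0.31 (adjusted p 0.556). Donor 4 alone was at 816 CPM, and the next donor was at 297 CPM; without donor 4 the log2 fold change of CD68 was -0.21.

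SPP1 differed most between donors. Among muscle macrophages 5 of 10 donors had none and the highest had 51.9 CPM, and at P0 the values ran from 0 to 6155 CPM with a median of 195. The gene did not pass the filter on low counts. It was higher at P0 in 6 of 7 donors (exact 2-sided sign flips, p = 0.0469, and 0.0625 adjusted over 4 tests chosen after the pooled values were seen). No size is given, since most muscle sums held 0 to 5 UMIs and both the size and this p depend on the prior count of 0.5. The P0 level was uneven: donor 9 gave 539 of the 816 UMIs from 12 of 141 cells, 1 cell held 278, and the pooled level of 610 CPM was 222 CPM without that donor. An SPP1 UMI was present in 22.7% of P0 macrophages (16.1% to 30.5%, exact binomial), 23.7% of FAPs and 23.8% of SCs, at median depths of 7568, 24188 and 18203 UMIs.

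**Figure D4:**
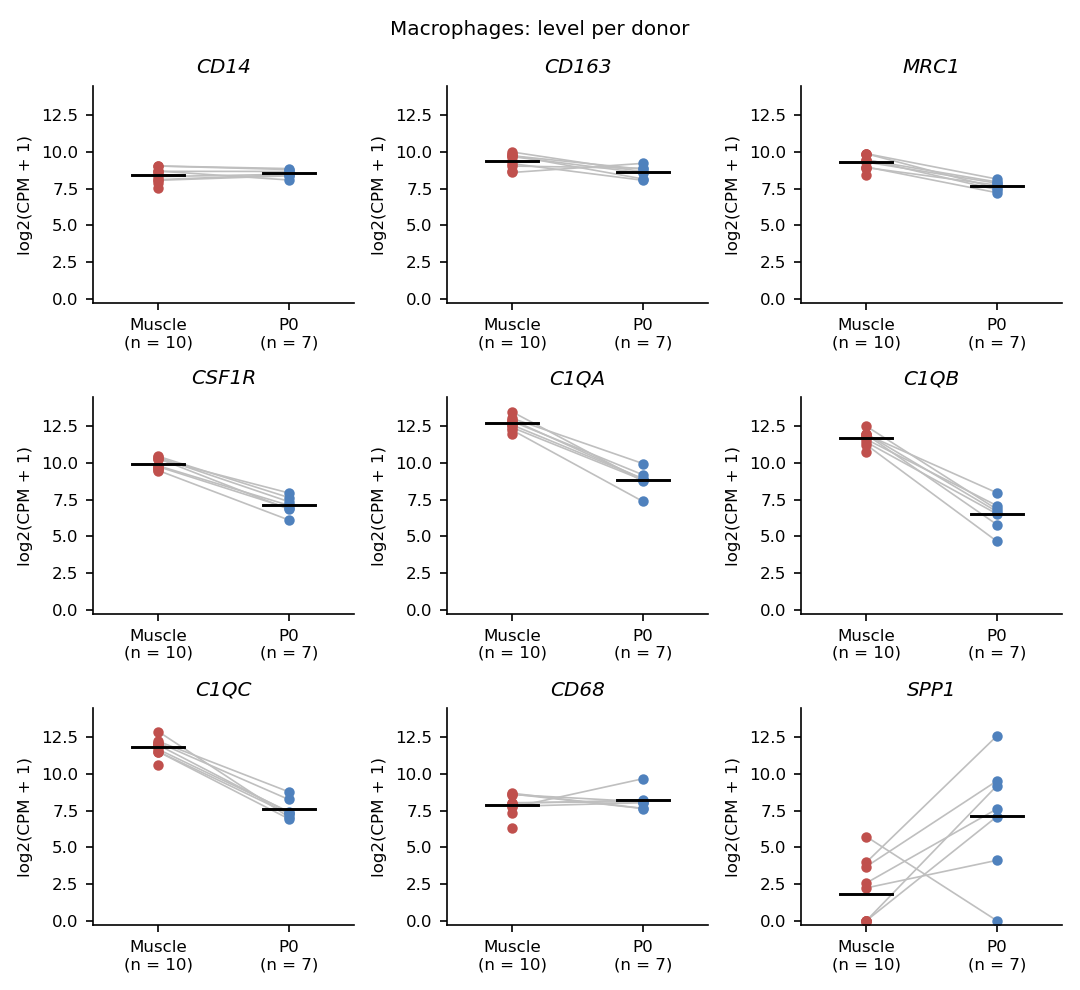
Level per donor, as log2(CPM + 1), of the 9 genes in macrophages of muscle (10 donors) and P0 (7 donors), with lines joining values of the same donor and bars at the mean. CSF1R, MRC1 and the 3 C1q genes drop in every donor, CD14 and CD68 stay at similar heights, and SPP1 at P0 spreads from 0 to 6155 CPM.

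CSF1R and MRC1 were also lower within C1q-positive cells alone. Cells with at least 3 C1q UMIs were 48.9% ± 15.6 of macrophages at P0 (SD, n = 7) against 71.2% in muscle, and at P0 cells without C1q were shallower, at 4534.5 UMIs against 9148. Pooled over the C1q-positive cells, CSF1R was at 1395 CPM in muscle and 190 CPM at P0, and MRC1 at 937 and 255 CPM. In a fit on sums of these cells the log2 fold change was -2.77 for CSF1R and -1.91 for MRC1. The 7 donors above do not apply to that fit, and no spread over donors is given. At P0 such cells numbered 16 in donor 1, 10 in donor 10 and 4 to 9 in each other donor. Only donors 1 and 10 thus reached the minimum of 10 cells used for the other sums, and these values rest on few cells. C1q itself chose these cells and is not compared in them. Thinned to 2000 UMIs per cell, with 4 muscle and 5 P0 macrophages left out as shallower, a CSF1R UMI was present in 73.7% (69.1% to 77.9%, exact binomial) of muscle and 24.3% (17.3% to 32.4%) of P0 macrophages, against 87.1% and 59.6% unthinned. For C1QB the thinned shares were 76.2% and 14.7%, and for CD14 38.6% and 39.7%.

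RNA of FAP genes was higher in P0 macrophages. All 3 FAP markers tested were called higher, beside 14.3% of all genes, and their summed level per donor was 10.3 to 466 CPM in muscle and 881 to 1918 CPM at P0. DCN, a matrix proteoglycan of FAPs, was seen in 19.6% and 89.4% of macrophages. The rise was not particular to macrophages. In SCs all 3 were called higher as well, with DCN from 156 ± 209 to 1171 ± 299 CPM. In SMMCs DCN was called higher, from 186 ± 275 to 638 ± 187 CPM, and in VECs none of the 3 was called. In macrophages with no PDGFRA UMI, an alternative added after this was seen, the 5 genes were again called lower. Log2 fold changes ran from -4.62 for C1QB to -1.36 for MRC1, while 573 genes were called in place of 1003. PDGFRA had a UMI in only 31.2% of P0 macrophages, far fewer than DCN. The cells kept can therefore still hold FAP RNA, and this alternative does not give levels without it. Of 5 neutrophil markers S100A8 and S100A9 were called higher, beside the same share, and the summed level was 4.94 to 5108 CPM and then 3683 to 9598 CPM, while the neutrophil receptors CSF3R and CXCR2 were at 0 at P0. At P0 3 of 4 dendritic markers (FLT3, CLEC9A and XCR1) and 5 of 6 lymphocyte markers (CD3E, CD3D, CD2, MS4A1 and CD79B) were at 0 as well, while BATF3 was at 59.8 CPM in 36.2% of macrophages and NKG7 at 58.4 CPM in 32.6%, and the myofibre gene ACTA1 was lower. The part of these shifts in the results was not tested.

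Of the scavenger and resident list, 9 of 11 tested were lower and 1 higher, beside 20.4% and 14.3% of all genes. LYVE1 was at 703 ± 278 CPM in muscle (SD, n = 10) and 22.9 ± 22.3 CPM at P0 (n = 7). SELENOP, a selenium carrier, was at 2275 ± 957 and 268 ± 117 CPM, and TIMD4, a receptor for dying cells, at 127 ± 70.7 CPM and then 0 in all 7. FOLR2, STAB1, VSIG4, IGF1, HMOX1 and F13A1 were also lower, and the lipid scavenger CD36 was higher, by 9.94-fold. Some of these falls were not particular to macrophages. In FAPs SELENOP went from 2551 ± 860 to 25.5 ± 17.8 CPM and IGF1 from 86.9 ± 59.1 to 0.141 ± 0.218 CPM. SELENOP was called lower in SCs, VECs and SMMCs as well. HMOX1 was called higher in FAPs, and CD36 was not called there.

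In the next lists the counts are small, beside 34.6% of all genes called in either direction. Of the complement list 2 of 4 tested were lower, C3AR1 from 221 ± 61.0 to 2.70 ± 3.74 CPM and CFD, complement factor D, from 4766 ± 1274 to 43.1 ± 19.0 CPM. CFD was called lower in FAPs as well, from 322 ± 250 to 4.55 ± 1.74 CPM. The growth factor CSF1, a ligand of CSF1R, was higher, at 9.27 ± 8.37 CPM in muscle and 308 ± 172 CPM at P0. FAPs, whose markers were higher in P0 macrophages, had 131 ± 17.9 CPM of CSF1 in muscle and 737 ± 146 CPM at P0, and the part of FAP RNA in the macrophage value was not tested. CSF1 was called higher in FAPs, SCs, VECs and SMMCs as well. The transcription factor gene SPI1 was lower by 2.38-fold. CSF1 and SPI1 were the 2 of 4 genes called in that list. Of the lipopolysaccharide receptor genes listed with CD14, TLR4 was lower and TLR2 higher, and the other 2 of 4 were not called. TLR4 was called lower in FAPs too, and TLR2 higher in FAPs and SCs. Of the osteopontin receptors 1 of 3 was called, ITGB5, which was lower. ITGB5 was called lower in FAPs, VECs and SMMCs as well, and was not called in SCs.

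Of 11 inflammatory mediators tested 8 were higher and 1 lower, beside 14.3% and 20.4% of all genes. IL6 went from 1.55 ± 4.89 to 428 ± 243 CPM and the monocyte attractant CCL2 from 1110 ± 1021 to 6905 ± 1965 CPM. In FAPs IL6 went from 5.02 ± 11.4 to 401 ± 142 CPM and CCL2 from 278 ± 240 to 694 ± 204 CPM, and CXCL8, S100A8 and S100A9 were called higher there as well. The part of FAP RNA in the macrophage values was not tested. In macrophages CXCL8, CCL3, CCL4, IL1A, S100A8 and S100A9 were higher as well, and TNF was lower, at 157 ± 87.4 and 8.45 ± 9.01 CPM. Among the lipid, lysosome and remodelling genes 5 of 11 were higher and 1 lower. The fatty acid carrier FABP5 went from 110 ± 66.7 to 2651 ± 616 CPM, and MMP9, a matrix protease, from 0 in all 10 donors to 9736 ± 3108 CPM. MMP12, CTSK and CD9 were higher and LPL was lower. In FAPs FABP5 was called higher too, from 40.0 ± 17.8 to 568 ± 237 CPM, and MMP9 from 0 to 13.7 ± 3.38 CPM. LPL was called lower there, from 130 ± 57.8 to 1.38 ± 0.530 CPM, while CTSK and CD9 were not called. CTSK was still higher in 9 of 9 donors in FAPs, by 0.87 on the log2 scale, under the size needed for a call. In SCs CTSK and CD9 were both called higher, in SMMCs CTSK alone, and in VECs neither.

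The 5 greatest rises were in MMP9, CXCL5, SAA3, MMP12 and SERPINB2, and the 5 greatest falls in BOLA-DMB, CR2, CD74, CD5L and LYZ. CD74, which guides antigen-presenting class II molecules, was at 10303 ± 2253 CPM in muscle and 13.2 ± 21.7 CPM at P0. Of 8 pan-leukocyte and myeloid markers 5 were lower, LAPTM5, CTSS, SPI1, PTPRC and AIF1, beside 20.4% of all genes. TYROBP (-0.21 ± 0.13) and FCER1G (-0.09 ± 0.15) were not called.

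None of the 8 genes tested in muscle macrophages was called between calves and adults. Among 2810 genes 3 were called (0.107%, edgeR) and 230 had an unadjusted p below 0.05. C1QB came closest. In calves it was at 3903, 3910, 4032, 4086 and 5807 CPM, and in adults at 1719, 2413, 2734, 3127 and 3656 CPM. All calves lay above all adults, which was so for 0.747% of genes, but the log2 difference of 0.67 ± 0.18 had an adjusted p of 0.286. C1QC differed by 0.72 ± 0.26 (adjusted p 0.516) and C1QA by 0.41 ± 0.22 (adjusted p 0.697), with overlapping groups. For CD14, CD163, MRC1, CSF1R and CD68 the log2 difference lay between -0.44 and 0.45.

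Between muscle and P0, 3 of the 9 genes were abundant enough to test outside macrophages, CD14, CD68 and SPP1. In FAPs CD14 was between 23.8 and 123 CPM in muscle (median 58.2) and between 13.5 and 25.2 CPM at P0 (median 16.9). It was lower in 9 of 9 donors, with a log2 fold change of -1.66 ± 0.20 (adjusted p 1.38e-07). CD68 was lower in 9 of 9 donors as well, between 3.70 and 14.8 CPM and then between 1.90 and 4.17 CPM, a log2 fold change of -1.78 ± 0.22 (adjusted p 5.53e-08). The muscle and P0 ranges of both genes overlapped slightly. Thus 2 of 3 genes tested in FAPs were called, both lower, beside 43.4% of 9208 genes called, 22.5% lower and 20.9% higher. SPP1 was not, at -0.57 ± 0.30 (adjusted p 0.0860). No gene of the 9 passed the filter in VECs or smooth muscle-mesenchymal cells (SMMCs).

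In SCs SPP1 was between 0 and 27.5 CPM in muscle (median 10.6) and between 8.10 and 83.6 CPM at P0 (median 28.7). The ranges overlapped, it was higher in 8 of 9 donors, and the log2 fold change was 1.64 ± 0.72 (edgeR, adjusted p 0.0459). Muscle sums held 0 to 9 SPP1 UMIs, and 6 cells held 78.1% of the 32 in all. The gene could pass the filter through P0 alone, so the size is rough. SPP1 was the only gene of the 9 tested there, beside 34.3% of 5221 genes called, 15.8% higher and 18.5% lower. CD14 was at 0 in 5 of 10 muscle donors and at most 6.59 CPM, and between 4.35 and 16.7 CPM at P0 in the same type.

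The macrophages' share of each gene's UMIs was lower at P0 than in muscle for every gene of the 9 but SPP1, where it was 8.44% and 12.3%. Their share of all UMIs also went from 12.3% to 0.664%. At P0 they held 92.7% to 93.1% of C1q UMIs, 76.6% of MRC1, 70.9% of CSF1R, 51.9% of CD163, 42.6% of CD68, and 13.1% of CD14. The level of CD14 in macrophages was 6.76-fold that of FAPs in muscle and 19.5-fold at P0. FAPs gave 444 of 1012 CD163 UMIs at P0, with a UMI in 6.72% of them at a median depth of 24188, against 0.0812% in muscle at 6213. Per UMI of C1QA, P0 FAPs held 12.3 of CD163 and macrophages 0.884. All 9 donors had CD163 in FAPs at P0, between 2.13 and 4.44 CPM, and 1 of 10 in muscle. The level in macrophages was still 120-fold that of FAPs.

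No group of cells with the combined pattern was found at P2, P5 or P8. The cultures of donors 4, 5, 6, 7, 8 and 10 had been sorted for SCs or FAPs. The paper's sorting panel included the leukocyte protein CD45, so macrophages were not among the cells sorted for. The shares and limits below use all cells. The unsorted cultures of donors 1, 2 and 9 held only part of these, so the limits are wider for them. A C1q UMI was present in 7 of 8966 cells at P2, 3 of 10405 at P5 and 2 of 2772 at P8, with at most 2 per cell. C1QC was at 0 in all 3 libraries, which allows a share of up to 0.0335% at P2, 0.0288% at P5 and 0.108% at P8 (3 counts, counting error only). This limits cells with a C1QC UMI and not cells that express it, since 49.6% of P0 macrophages had such a UMI. At least 3 of CSF1R, CD163, MRC1 and the C1q genes were seen together in 0 cells, 1 FAP of P5 had 5 of the 9 genes, and TYROBP in 4, 1 and 0 cells. CSF1R had a UMI in 1.06% (0.858% to 1.29%, exact binomial), 0.692% and 0.613% of cells, against 0.869% of FAPs at P0, and never more than 2 UMIs.

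Single genes of the 9 were present without the others. SPP1 was seen in 42.0% of cells at P2, 51.0% at P5 and 68.4% at P8. In SCs it was between 8.10 and 83.6 CPM at P0, between 33.5 and 196 CPM at P2 (median 68.9), between 47.8 and 805 CPM at P5 (median 128) and between 233 and 1058 CPM at P8 in 4 donors. In FAPs the medians were 25.8, 73.8, 193 and 219 CPM. Neighbouring timepoints overlapped at each step in both types.

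Between P0 and P2 SPP1 was called higher in both types. In SCs the log2 fold change was 1.43 ± 0.45 (adjusted p 0.0143, higher in 7 of 9 donors), where 10% of 9793 genes were called, 6.15% higher and 3.9% lower. With donor as a block it was 1.41 (adjusted p 0.0791). In FAPs it was 2.36 ± 0.69 (adjusted p 0.00579, higher in 6 of 8), where 19.3% of 11384 genes were called, 11.3% higher and 7.96% lower. With donor as a block it was 1.26 (adjusted p 0.104). Donor 10 was at 1144 CPM in FAPs of P2, from 12 cells of an SC culture, and the next donor was at 136 CPM; with at least 20 cells per sum the log2 fold change was 0.92 (adjusted p 0.0515).

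At P2 CD14 was called lower in SCs, and CD68 and CD163 in FAPs. In SCs CD14 was between 4.35 and 16.7 CPM at P0 and between 1.13 and 9.35 CPM at P2, overlapping but lower in 9 of 9 donors, with a log2 fold change of -1.34 ± 0.35 (adjusted p 0.00444). In FAPs CD68 was lower in 8 of 8 (-1.02 ± 0.18, adjusted p 8.64e-05) and CD163 in 6 of 8 (-1.05 ± 0.24, adjusted p 0.000972). With DESeq2 the log2 fold change of CD163 was -0.95, under the size needed for a call. CD14 in FAPs (-0.14 ± 0.13) and CD68 in SCs (-0.99 ± 0.28) were not called. With SPP1, 2 of 3 genes tested were called in SCs and 3 of 4 in FAPs, beside 10% and 19.3% of all genes (3.9% and 7.96% as lower).

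MRC1 in SCs at P2 came mostly from 1 donor. Donor 5 gave 735 of 938 UMIs, with a UMI in 36.7% of its 1125 SCs, and was at 23.1 CPM, while the other 8 donors were between 0 and 6.33 CPM. At P5 the 3 donors of SC cultures were close, at 8.76, 9.20 and 10.2 CPM. In muscle 9 of 10 donors had no MRC1 in SCs.

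Later steps were compared by exact sign flips for SPP1, MRC1, CD163 and CD14, added after the levels were seen, and none of 12 tests passed adjustment (smallest adjusted p 0.147). The lowest unadjusted p was that of CD163 in SCs at P5 against P2 (exact sign flips, p = 0.015625, the smallest that 7 donors allow), at 1.65 ± 1.06 and 3.59 ± 2.23 CPM. By CPM it was higher in 6 of 7 donors, and donor 4, with 7 UMIs and then 0 in 10 cells, counts as higher only through the prior count. CD14 in FAPs was lower at P5 than at P2 in 6 of 8 donors, by 0.20 ± 0.22 on the log2 scale (exact sign flips, p = 0.0391). The other 10 tests had p from 0.0547 to 0.988 (exact sign flips).

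**Figure D5:**
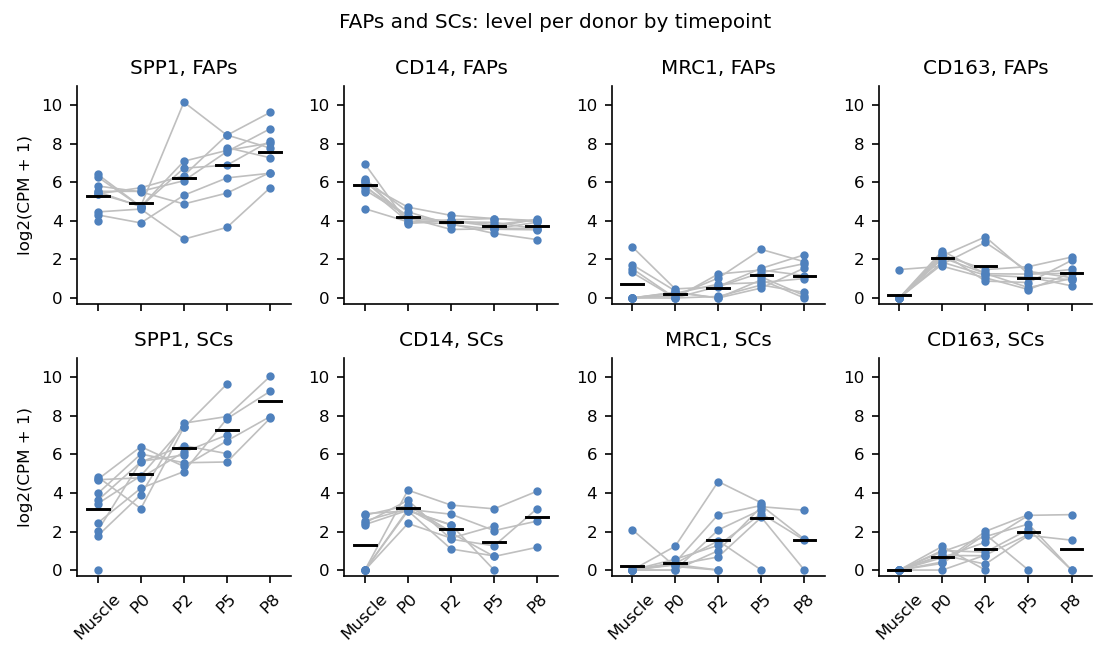
Level per donor, as log2(CPM + 1), of SPP1, MRC1, CD163 and CD14 in FAPs and SCs through the libraries, with bars at the mean of donors with at least 10 cells. The SPP1 mean is highest at P8 in both types, while CD14 is highest in muscle FAPs.

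Across 18 sums of cell types, 1 per type and library with at least 10 cells, the 9 genes were compared with 12247 genes on log2(CPM + 1). Such sums share their libraries and depths, and the correlations are a description. C1QA and C1QC were most like each other (r = 0.985), and C1QB was at 0.90 with both. Outside the 9, CSF1R was most like MSR1 (r = 0.976), SLC37A2 and CD300H, and CD163 like MSR1 (r = 0.976), ITGAM and CLEC5A. C1QB was closest to AOC1 (r = 0.984), NLRC4 and BRB, C1QA to ENSBTAG00000010155, AIF1 and FOLR2, and C1QC to ENSBTAG00000010155, AIF1 and AOC1. MRC1 was closest to DEFB7 (r = 0.941), GDA and SNX2, and CD68 to ENSBTAG00000048980, RNASE6 and TYROBP. CD14 was closest to SLC35F6 (r = 0.897), OSBPL11 and CTSZ. SPP1 was at 0.08 with C1QA, 0.35 with CSF1R and 0.69 with CD14, and its nearest genes were DNAJC3 (r = 0.837), ADAMTSL4 and C2.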

How the data were processed

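For each of 5 libraries the authors deposited a matrix of raw UMI counts. The submitters' processing notes name Cell Ranger 6.0.1 and build ARS-UCD1.2. The deposited cell tables gave the donor (demuxlet), the percent of mitochondrial UMIs and the cell type. Donor age classes and culture kinds are from the paper's overview of the donors. Cells were singlets that passed the authors' quality control, and demuxlet finds only doublets of different donors. Columns of the authors' own comparisons were not used, and no gene coordinates or sequences are given.

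The 9 genes, the gene lists (CSF1R ligands and myeloid factors, scavenger and resident genes, complement, osteopontin receptors, inflammatory mediators, lipid and lysosome genes, lipopolysaccharide receptor genes, cell type markers) and the tests were chosen with earlier results of these data known. All 9 genes are named in every comparison. Also named are called genes of the lists, the 3 genes most correlated with each, and the 5 greatest changes in each direction.

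Counts were summed per donor, type and library (at least 10 cells, or 5 in the C1q classes) and compared in edgeR 4.0.16 (quasi-likelihood F test, robust, TMM, filterByExpr, Benjamini-Hochberg over all genes tested). A call needed a log2 fold change over 1 in size at an adjusted p under 0.05, and the SE was taken as that size divided by the square root of F. The same animals gave both libraries, so donor numbers pair the sums. A fit with donor as a block was an alternative, as were DESeq2 1.42.0, no filter, other cell minimums, thinning and leaving out donors. Shares have exact binomial intervals (95%), which like the floors cover counting error only. Sign flips used CPM with a prior count of 0.5. On simulated data with 200 changed genes, 99.5% were recovered for P0 against muscle macrophages (2896 genes). For calves against adults 98% were recovered (2810 genes, with 2 false calls), and for the C1q classes 99% (954 genes). The size set for these genes is not given here, and recovery at other sizes was not tested.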

Additional observations from a re-analysis of the deposited data

Results flagged for a closer look

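In 66 groups of 4 to 10 donors, 9 had a highest donor far from the rest. The limit used passes about 1 in 20 groups by chance for normally distributed values, and its rate for skewed levels with many zeros, as here, was not determined. In macrophages these were SPP1 in muscle (donor 5, 51.9 CPM, next 14.8), CD68 at P0 (donor 4, 816 CPM, next 297) and SPP1 at P0 (donor 9, 6155 CPM, next 735). In FAPs they were CD14 in muscle (donor 4, 123 CPM, next 70.1), MRC1 in muscle (donor 4, 5.35 CPM from 3 UMIs), SPP1 at P2 (donor 10, 1144 CPM, from 12 cells) and MRC1 at P5 (donor 1, 4.74 CPM). In SCs they were MRC1 at P2 (donor 5, 23.1 CPM) and SPP1 at P5 (donor 5, 805 CPM, next 249).

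CD14 was singled out between muscle and P0 because every donor lay lower at P0 in FAPs and higher in SCs and SMMCs. In FAPs the mean change on the log2(CPM + 1) scale was -1.70, lower in 9 of 9 donors. In SCs and SMMCs the P0 value lay above the muscle value in 9 of 9 and 7 of 7 donors. Muscle held 9 and 2 CD14 UMIs in these types, and 5 and 8 of 10 muscle donors were at 0 at a lower depth, where any P0 UMI counts as higher, so no direction or size is drawn for SCs and SMMCs. The difference between types was not tested.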

How the results depend on the processing

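Donors share 1 library per timepoint, sums are unequal in depth, and the P0 macrophage comparison as reported had 7 donors at P0. Settings with other cell minimums or with part of the macrophages had other numbers. With at least 20 cells only donors 1 (29 cells) and 10 (20 cells) were left among P0 macrophages. 2 of the settings below, macrophages without a PDGFRA UMI and C1q-positive macrophages alone, were chosen after seeing the data. The cause of the shifts was not tested except where fewer or more genes or cells were used.

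Without the filter on low counts, calls numbered 3389 for macrophages at P0 against muscle (1003 as reported), 6925 for FAPs (3997), 5286 for SCs (1789), 5030 for VECs (2071), 4216 for SMMCs (1257), 54 for calves against adults (3), 641 for the C1q classes (131 with the C1q genes), 2097 for SCs at P2 (984) and 3501 for FAPs at P2 (2194). Thinned to the smallest total they numbered 484, 1663, 516, 1213 and 491 for the 5 types at P0, and 377 and 519 for SCs and FAPs at P2, and 39 for the C1q classes with cells thinned to 2000 UMIs. They were 573 in macrophages without PDGFRA and 595 in C1q-positive ones. For calves against adults DESeq2 gave 5 and a minimum of 20 cells gave 1, and leaving out 1 donor gave 0 to 4, with 0 without donor 1 or donor 6.

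The log2 fold change of CD14 in macrophages at P0 turned positive with thinning (0.015), without PDGFRA (0.25) and in C1q-positive cells (0.038), and ran from -0.088 to 0.070 with 1 donor left out. That of CD68 turned negative with at least 20 cells (-0.34), with donor as a block (-0.10) and in C1q-positive cells (-0.12), and ran from -0.21 to 0.42. Between calves and adults MRC1 was 0.080 with sex as a covariate and -0.27 to 0.055 without 1 donor, and CSF1R was -0.056 with at least 20 cells and -0.028 to 0.24. None of these was called. CD163 in macrophages was called only without donor 10 (-1.04). CD68 in SCs at P2 was called with at least 20 cells (-1.03) and without donor 1, 4, 7 or 8, and CD163 in FAPs at P2 was not with DESeq2 (-0.95).

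With donor as a replicate block 875 genes were called in macrophages at P0, 4622 in FAPs, 2187 in SCs, 2092 in VECs, 1553 in SMMCs, and 1078 and 2202 in SCs and FAPs at P2; without the block the C1q classes gave 130. Apart from SPP1 at P2, the pairing changed no call among the 9 genes.

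At 1000 UMIs per cell the share of macrophages with a UMI was 25.1% for CD14, 40.0% for CD163, 40.3% for MRC1, 59.7% for CSF1R and 24.9% for CD68 in muscle, and 24.8% for CD14, 33.3% for CD163, 9.22% for CSF1R, 22.7% for C1QA, 17.0% for C1QC and 18.4% for CD68 at P0. Cells of P2 to P8 with at least 2 UMIs numbered 885 for CD14, 98 for CD163, 384 for MRC1, 3 for CSF1R, 0 for C1QA, 2 for C1QB, 0 for C1QC and 35 for CD68.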
